A study of Mus musculus with 2 samples.

Results

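Genes of leukocyte adhesion were followed across the cells of the normal mouse aorta: Vcam1, Icam1, Icam2, Sele, Selp, Pecam1, F11r and Jam2. These 8 were taken by symbol from a table of 16971 genes, all 8 were in it, and the counts of unique molecular identifiers (UMIs, 1 per captured RNA molecule) were described in the 10 cell populations that the authors named. All cells came from whole aortas of female C57/BL6 wild-type mice aged 12 weeks on chow, with no transgene and no treatment. The tissue, cleared of perivascular fat, was digested with collagenases, hyaluronidase and DNase for 1 hour at 37 °C before droplet capture. There were 2 libraries, from 2 aortas (2260 cells in library 1, 3191 in library 2), and p-values therefore measure the spread between 2 libraries, which may be technical.

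Leukocytes leave the blood in steps. The selectins Sele (E-selectin) and Selp (P-selectin) slow rolling cells through sugar ligands such as those on Selplg, the immunoglobulin-family molecules Vcam1, Icam1 and Icam2 hold them through integrins, and Pecam1, F11r (JAM-A) and Jam2 (JAM-B) sit at cell junctions where the cells pass through. Sele, Vcam1 and Icam1 are known for induction by inflammatory cytokines through NF-kB, whereas Icam2, Pecam1 and F11r are made by resting endothelium, and Selp is stored in Weibel-Palade bodies of endothelial cells and in platelet granules.

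The libraries held 11104066 and 19484171 UMIs, with a median of 4160.5 and 5636 UMIs per cell, and 12 cell barcodes occurred in both; of the 24 cells with such a barcode, 10 were endothelial. The populations were EC 1 (425 cells), EC 2 (229), EC 3 (94), VSMC (vascular smooth muscle, 2159), Fibro 1 (1147), Fibro 2 (634), Mono 1 (443), Mono 2 (109), Macro (167) and Neuron (44). All 6 fixed endothelial markers were detected in each EC population, with a summed level of 3332 to 6078 CPM (UMIs per 1000000 UMIs of a population in a library) against 0 to 147 CPM elsewhere. EC 3 alone of the endothelial populations carried Prox1, and its 6 lymphatic markers summed to 30375 and 12314 CPM. The 4 capillary markers summed to 9175 and 13227 CPM in EC 2 against 46.2 and 52.8 CPM in EC 1. The names Macro and Neuron went against the markers: Macro held 71.1 and 127 CPM of 7 macrophage markers, with Adgre1 at 0, but 1602 and 1816 CPM of T and NK markers and 1502 and 842 CPM of B cell markers, and Neuron held 5379 and 8587 CPM of Schwann markers. The 7 macrophage markers stood at 23250 and 21955 CPM in Mono 1. RNA of other cells was present in the endothelial sums: 4 haemoglobin genes summed to 16555 and 5846 CPM in EC 1, 3623 and 23324 CPM in EC 2 and 3423 and 1661 CPM in EC 3, and 5 pericyte markers to 1054 and 752 CPM in EC 2 against 95.6 and 72.2 CPM in EC 1. Their part in the results was not tested.

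Of 10 populations, EC 1 had the highest level of Vcam1, Icam1, Icam2, Selp and Pecam1 in each library. F11r was shared by the 3 endothelial populations, and Jam2 was highest in EC 2. The share of a member's UMIs that came from endothelial cells, which were 748 of 5451 cells, was 90.7% for Icam2, 90.2% for Selp, 83.6% for Pecam1, 72.7% for F11r, 55.3% for Vcam1, 49.6% for Jam2 and 40.1% for Icam1. Sele gave 8 UMIs in all. The populations had been named by the authors from the same counts, so differences between them are not independent of the naming; clusters rebuilt without the 8 members and without the lists of ligands, other adhesion genes and chemokines, each named after the population of most of its cells, held 424 of 425 EC 1 cells, 228 of 229 EC 2 cells and 93 of 94 EC 3 cells under the same name.

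**Figure D1:**
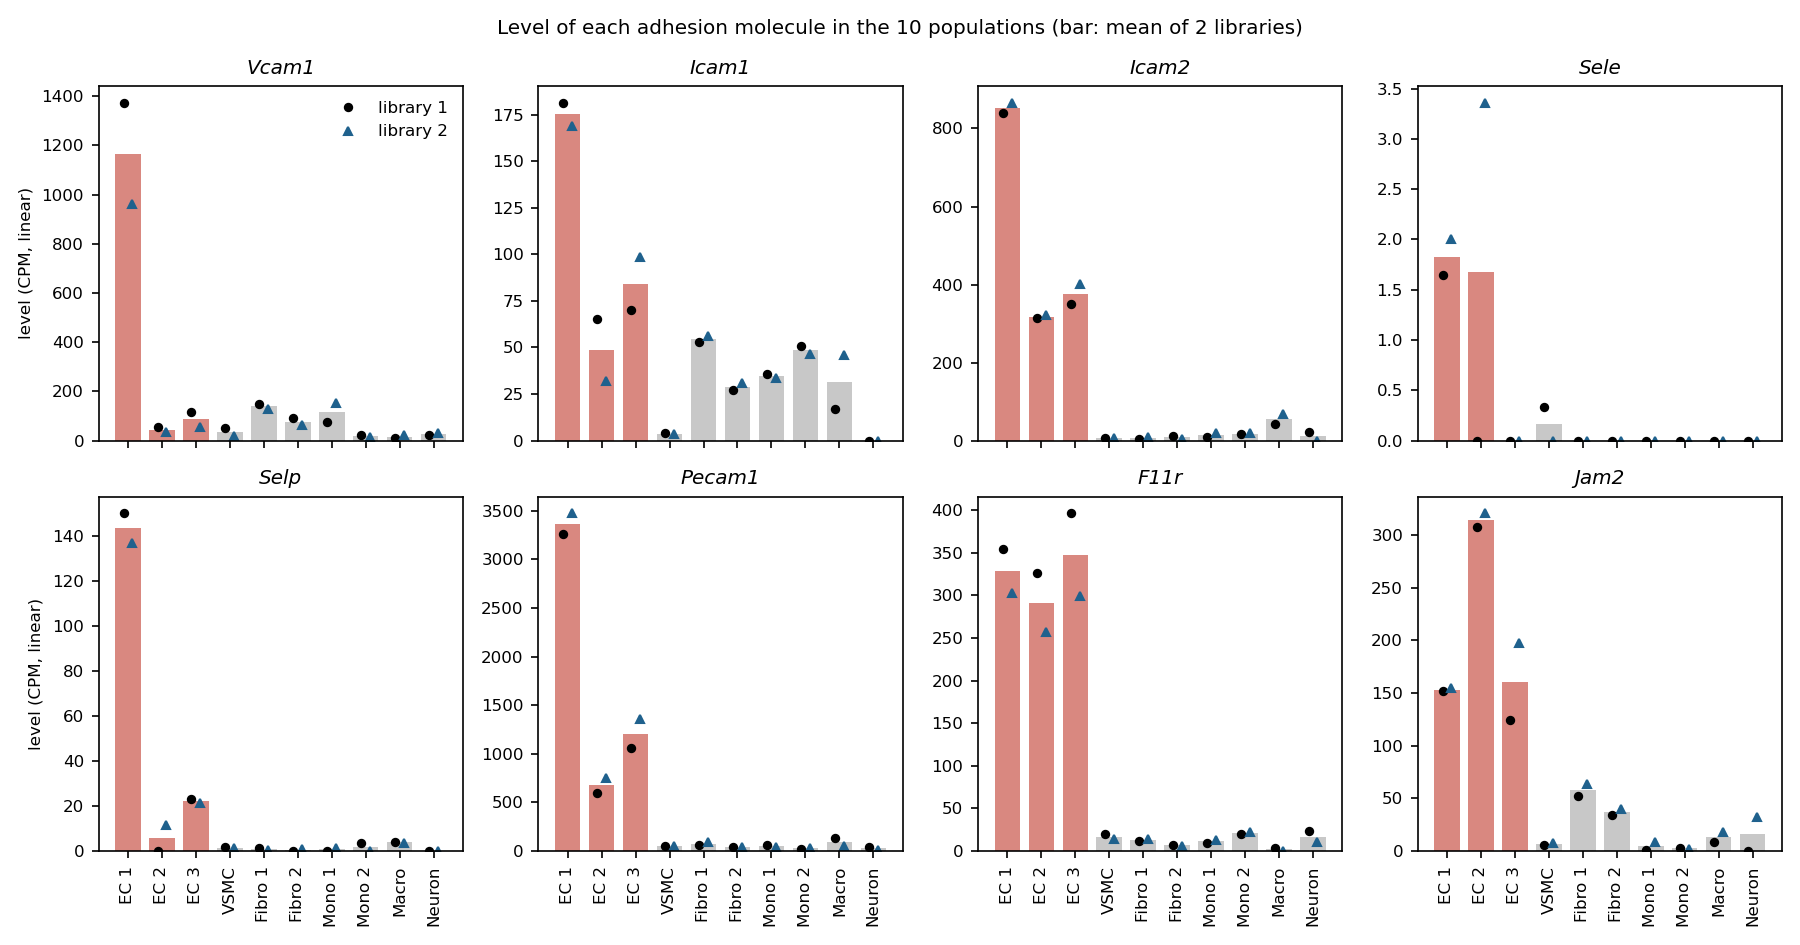
Level of each of the 8 members (vertical axis, CPM on a linear scale that differs between panels) in the 10 populations, with endothelial bars in red. Bars are the mean of 2 libraries and symbols are the libraries; Vcam1 stands at 1373 and 961 CPM in EC 1, and no other population passes 152 CPM.

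The 250 bases before the RefSeq start (GRCm38.p6, plus strand) are shown for the 4 members that the promoter table held. In EC 1, Sele was at 1.65 and 2.01 CPM, against 181 and 169 CPM for Icam1 and 150 and 137 CPM for Selp. F11r did not order the endothelial populations. The windows are chr9:21015690-21015939 for Icam1, chr1:164047984-164048233 for Sele, chr1:164115014-164115263 for Selp and chr1:171437311-171437560 for F11r. Capitals mark matches, on either strand, to the NF-kB core GGNNNTTCC, the ETS core CCGGAA or the TATA box TATAAA.
Icam1: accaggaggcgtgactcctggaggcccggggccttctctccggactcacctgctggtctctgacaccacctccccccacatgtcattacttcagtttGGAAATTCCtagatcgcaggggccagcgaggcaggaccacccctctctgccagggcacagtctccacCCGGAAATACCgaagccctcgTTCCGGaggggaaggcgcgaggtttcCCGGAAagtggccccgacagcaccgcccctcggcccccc
Sele: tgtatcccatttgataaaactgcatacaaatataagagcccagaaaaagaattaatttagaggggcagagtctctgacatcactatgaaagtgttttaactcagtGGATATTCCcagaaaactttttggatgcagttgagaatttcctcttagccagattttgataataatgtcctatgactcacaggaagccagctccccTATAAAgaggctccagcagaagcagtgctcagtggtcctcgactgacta
Selp: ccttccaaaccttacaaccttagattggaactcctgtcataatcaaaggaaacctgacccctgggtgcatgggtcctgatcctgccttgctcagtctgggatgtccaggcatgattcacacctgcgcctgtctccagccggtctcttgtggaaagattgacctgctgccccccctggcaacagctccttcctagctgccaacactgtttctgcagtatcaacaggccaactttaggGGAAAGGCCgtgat
F11r: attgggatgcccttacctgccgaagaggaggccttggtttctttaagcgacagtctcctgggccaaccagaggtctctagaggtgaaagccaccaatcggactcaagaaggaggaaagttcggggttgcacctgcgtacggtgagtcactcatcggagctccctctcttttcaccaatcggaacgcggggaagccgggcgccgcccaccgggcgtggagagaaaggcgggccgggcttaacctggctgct

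The NF-kB core matched at positions -153 to -145 and -84 to -76 of Icam1, at -145 to -137 of Sele and at -14 to -6 of Selp, counted from the start. Of 32851 mouse promoter windows of this length, 15.7% held such a match. Icam1 also had 3 ETS cores, 1 of which overlaps the second NF-kB match, and Sele had a TATA box at -49 to -44; these motifs occurred in 12.0% and 12.4% of windows. The F11r window held none of the 3 motifs. Its GC content was 60.0%, against 65.2% for Icam1, 53.6% for Selp and 40.4% for Sele, and a median of 52.4% over all windows. These matches are letters in a window and were not tested as binding sites.

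The selectins differed widely in how often they were detected. Sele, the cytokine-induced endothelial selectin, had 4 UMIs in 4 of 425 EC 1 cells (1 in library 1, 3 in library 2), 2 UMIs in EC 2 and 2 in VSMC, and was listed at 0 in the other 7 populations. For EC 3, 0 of 94 cells allows a share of cells with a UMI of up to 3.19% (3 counts), which bounds detection and not expression, and a difference between endothelial populations was not detectable at this depth. Sele was too low for the fit across genes and was not tested.

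Selp reached 150 and 137 CPM in EC 1, from 171 of 425 cells. EC 2 had 0 and 11.8 CPM, with all 7 UMIs in 2 cells of library 2, and EC 3 had 23.3 and 21.6 CPM, with 10 UMIs in 6 cells. The other populations lay between 0 and 4.18 CPM. The order EC 1, EC 3, EC 2 was the same in each library, and neither EC 3 nor EC 2 overlapped EC 1. Platelet markers (6 genes) summed to 28.0 and 28.1 CPM in EC 1, 29.6 and 45.3 CPM in EC 2 and 140 and 46.2 CPM in EC 3. The same list reached 4932 and 5198 CPM in Mono 1, where Selp had 2 UMIs. That sum came from 3 of the 6 genes, with Gp9, Gp1ba and Gp1bb at 0. Gp1ba and Gp1bb were also at 0 in EC 2 and EC 3. Whether the sum in Mono 1 reflects platelet RNA was not tested. The part of platelet RNA in the Selp counts was not tested.

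Vcam1 binds the integrin VLA-4 on monocytes and lymphocytes. It stood at 1373 and 961 CPM in EC 1, against 53.3 and 35.3 CPM in EC 2 and 116 and 55.5 CPM in EC 3. In library 1, 1 cell held 6 of the 9 UMIs of EC 2, and 1 cell held 11 of the 15 UMIs of EC 3. With equal weight of cells, the mean level was 29.4 CPM in EC 2 and 56.6 CPM in EC 3. The next highest levels were in Fibro 1 (148 and 130 CPM) and Mono 1 (77.2 and 152 CPM), which overlapped each other, followed by EC 3 and Fibro 2 (90.3 and 61.8 CPM), which also overlapped. VSMC had 52.7 and 20.01 CPM, Neuron 23.1 and 32.04 CPM, Mono 2 23.8 and 14.1 CPM, and Macro 8.37 and 21.2 CPM. EC 2 was thus below Fibro 1, Fibro 2 and Mono 1 in each library.

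Icam1, a ligand of the leukocyte integrins LFA-1 and Mac-1, was spread over more cell types. EC 1 held 181 and 169 CPM, EC 3 69.9 and 98.6 CPM and EC 2 65.1 and 31.9 CPM. The range of EC 2 took in that of Fibro 1 (53.0 and 56.2 CPM), Mono 2 (50.9 and 46.3 CPM) and Mono 1 (35.7 and 33.6 CPM). Fibro 2 had 26.9 and 31.1 CPM and Macro 16.7 and 46.0 CPM. VSMC was lowest of the populations with a UMI, at 3.86 and 3.69 CPM, and Neuron had none.

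Icam2, another LFA-1 ligand, kept the 3 endothelial populations apart from the rest: 839 and 866 CPM in EC 1, 314 and 321 CPM in EC 2 and 349 and 401 CPM in EC 3. Macro followed with 41.8 and 67.3 CPM. No other population passed 23.1 CPM. Pecam1, the junctional molecule CD31, had the same order of populations at the top, with 3256 and 3471 CPM in EC 1, 598 and 752 CPM in EC 2 and 1056 and 1353 CPM in EC 3. Outside the endothelium its levels were 10.7 to 138 CPM, with the top value in Macro of library 1.

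F11r, which pairs with itself across junctions and binds LFA-1, did not order the endothelial populations: 354 and 303 CPM in EC 1, 326 and 257 CPM in EC 2 and 396 and 299 CPM in EC 3, with overlapping ranges. All other populations lay at or below 23.1 CPM, and Macro held 1 UMI. Jam2, a ligand of VLA-4 and of Jam3, was highest in EC 2 at 308 and 321 CPM. EC 1 had 152 and 155 CPM, inside the range of EC 3 (124 and 197 CPM). Fibro 1 (52.5 and 63.9 CPM) and Fibro 2 (34.6 and 39.6 CPM) came next without overlap.

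The series title asks how endothelial populations of the aorta differ. In EC 1 against EC 2, 5 of the 7 members that passed the filter on low counts were higher, 1 was lower and 1 was not called (edgeR quasi-likelihood test, Benjamini-Hochberg adjusted p under 0.05 over 10488 genes). Over all genes tested, 20.3% were called, 11.1% higher and 9.23% lower. The log2 fold changes with their standard errors were 4.89 ± 0.33 for Vcam1, 4.05 ± 0.40 for Selp, 2.44 ± 0.22 for Pecam1, 2.26 ± 0.26 for Icam1 and 1.58 ± 0.15 for Icam2, with edgeR adjusted p-values of 3.8e-13, 2.7e-09, 1.9e-10, 5.9e-08 and 5.8e-10 in that order. Jam2 was lower, at -0.89 ± 0.17 (edgeR adjusted p = 0.00013). F11r had 0.33 ± 0.15 (95% interval -0.01 to 0.68, edgeR adjusted p = 0.138) and was called only with the rebuilt clusters (0.46, edgeR adjusted p = 0.030). The median of the 7 members was 2.26, and that of all genes 0.01.

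Single libraries gave the same direction for each called member, but Icam1 differed by 1.46 in library 1 and 2.36 in library 2 (log2 ratio of CPM). The Selp ratio in library 1 rests on 0 UMIs in EC 2, and in library 2 it was 3.41. Relative to plain CPM, the normalization raised the median gene by 0.12 in this comparison and by 0.16 in EC 1 against EC 3.

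In EC 1 against EC 3, which uses the same EC 1 sums, Vcam1 (4.08 ± 0.34), Selp (2.85 ± 0.40), Pecam1 (1.66 ± 0.21), Icam2 (1.36 ± 0.16) and Icam1 (1.13 ± 0.25) were higher, against a background of 11.6% of all genes called, 5.97% higher and 5.64% lower. The largest edgeR adjusted p of these 5 was 0.0020. F11r had 0.14 ± 0.16 (95% interval -0.23 to 0.51) and Jam2 0.02 ± 0.21 (-0.47 to 0.50), and neither was called.

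In EC 2 against EC 3, 1 member was higher and 2 were lower, with 11.7% of all genes called, 5.52% higher and 6.17% lower. Jam2 was higher by 0.91 ± 0.22 (edgeR adjusted p = 0.0035; 1.30 and 0.70 in the libraries), and Pecam1 was lower, at -0.78 ± 0.22 (edgeR adjusted p = 0.018), although not without the library term, with DESeq2 or at equal depth per cell. Icam1 was at the threshold, at -1.13 ± 0.38 (edgeR adjusted p = 0.049), and kept its call under 1 of 8 alternatives; its library ratios were -0.10 and -1.59. Vcam1 had -0.81 ± 0.64, Selp -1.20 ± 0.78, Icam2 -0.22 ± 0.19 and F11r -0.19 ± 0.19, none of them called.

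**Figure D2:**
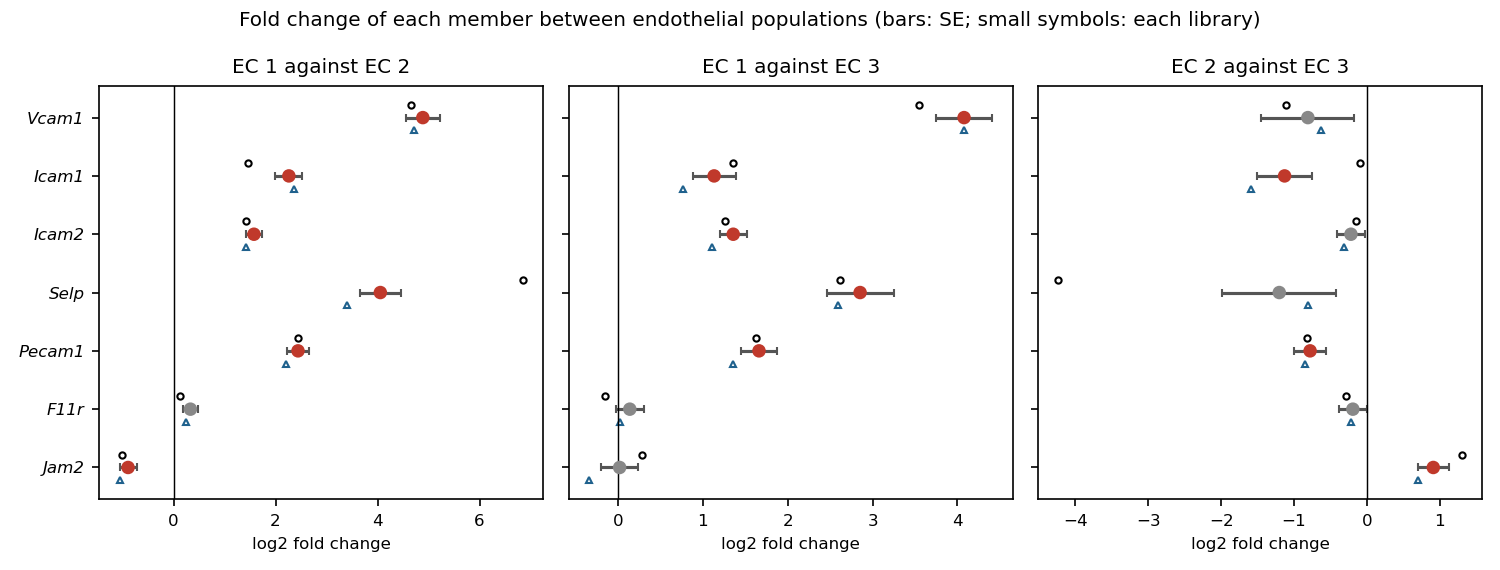
Log2 fold change (horizontal axis) of the 7 tested members in each pair of endothelial populations, with standard errors as bars, red where the adjusted p was under 0.05 and grey where not. Small circles and triangles are library 1 and library 2 alone; Vcam1 lies at 4.89 and 4.08 in the comparisons of EC 1, F11r near 0 throughout, and the far Selp circles rest on 0 UMIs in EC 2 of library 1.

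Shares of cells with a UMI put EC 1 first for Vcam1, Icam1, Icam2, Selp and Pecam1 and EC 2 first for Jam2, as the levels did. For Jam2 the share was lower in EC 3 than in EC 1 although its mean level was 161 CPM in EC 3 and 153 CPM in EC 1, and for F11r the share was highest in EC 1 and the mean level in EC 3 (347 CPM). In EC 1, 77.9% of cells had a UMI of Vcam1, 43.1% of Icam1, 90.6% of Icam2, 40.2% of Selp, 100% of Pecam1, 70.4% of F11r and 48.0% of Jam2, at a median of 4010 UMIs per cell. EC 2 cells were shallower, at a median of 2658 UMIs, and had shares of 7.42%, 8.30%, 58.1%, 0.87%, 86.9%, 59.8% and 66.4% in the same order of genes. EC 3 cells, at 4139 UMIs, had 17.0%, 25.5%, 70.2%, 6.38%, 87.2%, 69.1% and 27.7%. After each cell was thinned to 1300 UMIs, with 0 cells left out, Vcam1 was found in 55.5% of EC 1 cells against 3.49% in EC 2 and 5.32% in EC 3. Jam2 at this depth was found in 22.8% of EC 1 cells, 38.4% of EC 2 cells and 16.0% of EC 3 cells.

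Free RNA can give UMIs in cells that do not make a gene. Its part in the shares below, and whether VSMC make these genes, were not tested. In VSMC, where the 6 endothelial markers summed to 40.8 and 51.9 CPM, the shares at a median of 6025 UMIs per cell were 2.27% for Icam1, 3.47% for Icam2, 0.97% for Selp, 24.3% for Pecam1, 9.59% for F11r and 4.08% for Jam2. The shares of F11r in the other non-endothelial populations, 0.599% to 6.02%, lay below that of VSMC, although Mono 2 had a higher level (21.3 against 17.1 CPM). At 1300 UMIs per cell this order was not kept, with F11r in 2.27% of VSMC cells and 2.27% of Neuron cells. In library 2 at this depth, Mono 1 (2.29%) and Fibro 1 (2.11%) passed VSMC (2.08%). In library 1, VSMC (2.45%) was above Fibro 1 (1.79%) and Mono 1 (0.552%). The share of Selp in EC 2 was also below that of VSMC, whose cells were deeper; at 1300 UMIs per cell it was 0.873% in EC 2 (2 cells) against 0.278% in VSMC, and the mean level was 5.88 CPM in EC 2 against 1.58 CPM in VSMC. No order was read from these Selp values. Thinned EC 1 cells had a mean of 3.17 and 3.01 of the 8 members in the libraries, EC 2 cells 1.93 and 1.70 and EC 3 cells 1.59 and 1.63, and other cells at most 0.39.

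**Figure D3:**
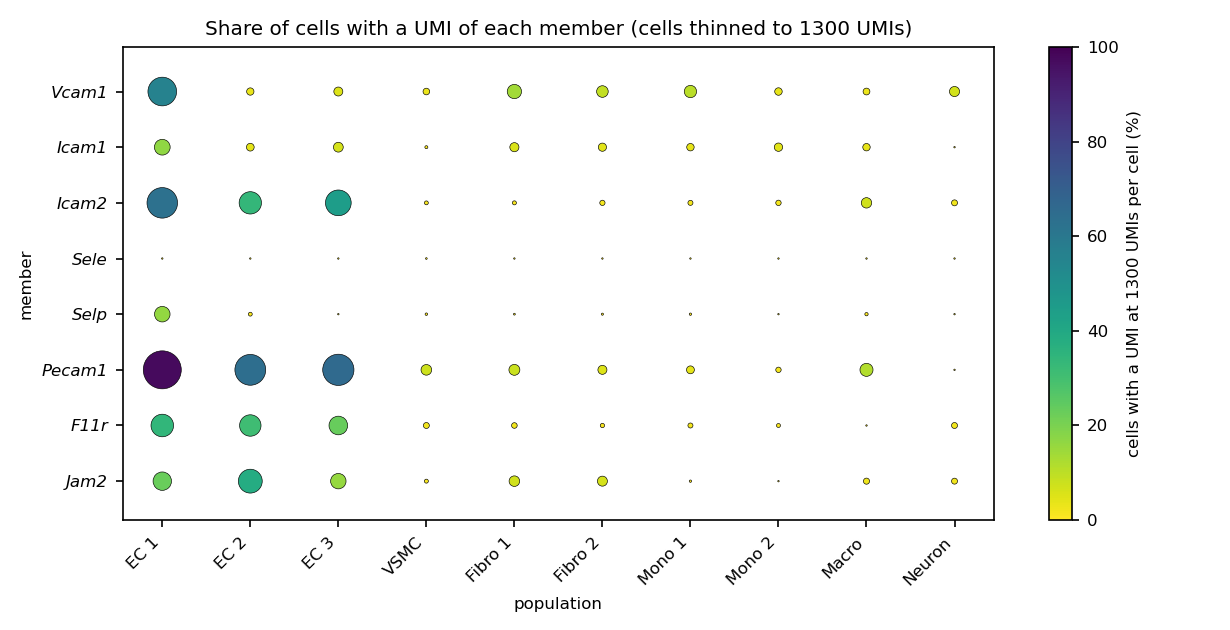
Share of cells with a UMI of each member (rows) in each population (columns) after thinning to 1300 UMIs per cell; dot area and colour both give the percentage, over both libraries. Pecam1 fills 97.6% of EC 1 cells, Vcam1 is at 55.5% in EC 1 against 3.49% in EC 2, and Sele is at or near 0 throughout.

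Within EC 1, the members were unevenly held. The median cell had 2 UMIs of Vcam1 and the highest had 117, and the 63 cells with 10 or more UMIs (23 in library 1, 40 in library 2) held 58.7% of the Vcam1 UMIs of EC 1. At equal depth, Icam1 was found in 22.2% and 21.9% of EC 1 cells with a Vcam1 UMI and in 13.8% and 8.40% of those without. The Spearman correlation of the pair over cells was 0.25 (148 cells) and 0.24 (277 cells), given as a description, since cells share a library. Vcam1 was found in 66.7% and 52.4% of EC 1 cells with a Selp UMI and in 59.5% and 52.8% of those without. Icam2 and F11r had a correlation of 0.18 and 0.20.

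Each tested member was higher in the endothelial class, taken as the mean of EC 1, EC 2 and EC 3, than in VSMC. All 7 were called, against 42.1% of all genes called, 19.4% higher and 22.7% lower. The log2 fold changes ran over 2.04 ± 0.31 for Vcam1, 4.10 ± 0.14 for F11r, 4.13 ± 0.50 for Selp, 4.35 ± 0.26 for Icam1, 4.52 ± 0.22 for Pecam1, 4.73 ± 0.17 for Jam2 and 6.20 ± 0.17 for Icam2. The class mean does not hold for each population: Vcam1 in EC 2 (53.3 and 35.3 CPM) overlapped VSMC (52.7 and 20.01 CPM). Selp had 0 UMIs in EC 2 of library 1, against 1.85 CPM in VSMC. Against immune populations (mean of Mono 1, Mono 2 and Macro) all 7 were also higher, with 39.6% of all genes called, 21.4% higher and 18.2% lower, from 0.89 ± 0.21 for Icam1 to 5.00 ± 0.21 for F11r. Vcam1 was higher there by 1.95 ± 0.39 (2.95 in library 1, 1.74 in library 2), although EC 2 alone was below Mono 1 in each library. For Icam1, the range of EC 2 alone (65.1 and 31.9 CPM) took in those of Mono 1 and Mono 2.

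Against fibroblasts (mean of Fibro 1 and Fibro 2) 6 of 7 were higher, with 40.7% of all genes called, 18.2% higher and 22.5% lower. Icam2 (5.87 ± 0.15), Selp (5.02 ± 0.57), F11r (4.85 ± 0.14), Pecam1 (4.52 ± 0.17) and Jam2 (1.96 ± 0.13) differed most. Icam1 differed by 0.94 ± 0.17 (edgeR adjusted p = 4.3e-05), although EC 2 alone (65.1 and 31.9 CPM) took in the range of Fibro 1 (53.0 and 56.2 CPM). Vcam1 was not called, at 0.47 ± 0.26 (95% interval -0.11 to 1.05, edgeR adjusted p = 0.148), although EC 1 alone was far above both fibroblast populations in CPM. At equal depth per cell, Selp was called in none of the 3 endothelial class comparisons, and Icam1 was not called against fibroblasts or immune populations.

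The stroma held 3 members above VSMC. Fibroblasts against VSMC showed Icam1 (3.41 ± 0.21), Jam2 (2.77 ± 0.18) and Vcam1 (1.57 ± 0.20; 1.11 and 2.09 in the libraries) higher and F11r lower (-0.75 ± 0.20, edgeR adjusted p = 0.0025, not called at equal depth). Of all genes, 48.3% were called in this comparison, 25.4% higher and 22.9% lower. Icam2, Selp and Pecam1 had 0.32 ± 0.27, -0.89 ± 0.61 and 0.00 ± 0.20 and were not called. Fibro 2 against Fibro 1 had 5 of 7 members lower, with 15.5% of all genes called, 7.2% higher and 8.3% lower: F11r (-1.05 ± 0.33), Pecam1 (-1.03 ± 0.25), Vcam1 (-0.94 ± 0.23), Icam1 (-0.90 ± 0.19) and Jam2 (-0.68 ± 0.18). Of these 5, 1 was called at equal depth per cell, 1 with DESeq2 and 3 without the library term.

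In immune cells, Vcam1 separated Mono 1 from Mono 2, at 77.2 and 152 CPM in Mono 1 against 23.8 and 14.1 CPM in Mono 2 (2.66 ± 0.54, edgeR adjusted p = 0.00047; 1.65 and 3.31 in the libraries). It was the 1 member of 7 called there, with 17.1% of all genes called, 9.01% higher and 8.12% lower. Macro against Mono 1 and Mono 2, with 19.6% of all genes called, 8.85% higher and 10.8% lower, had Icam2 higher by 1.59 ± 0.41 (edgeR adjusted p = 0.0047) and Pecam1 by 1.14 ± 0.35 (edgeR adjusted p = 0.018; 1.80 and 0.59 in the libraries). Icam2 stood at 55.5 and 56.1 CPM in the Macro cells with 2 or more T and NK marker UMIs (42 in each library) and at 50.7 and 103 CPM in those with 2 or more B marker UMIs (29 and 19). Without 8 Mono 1 cells rich in endothelial marker UMIs, Mono 1 had 25.5 CPM of Pecam1 and 6.96 CPM of Icam2, against 54.3 and 14.2 CPM with them.

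F11r was lower in Macro, at -3.20 ± 0.99 (edgeR adjusted p = 0.020), but this rests on 1 UMI in Macro. By counts, Mono 2 over Macro was 11.2-fold (counting interval 1.76 to 469) and Mono 1 over Macro 6.15-fold (0.999 to 254), and the call was absent with the rebuilt clusters (0.22). All 17 F11r UMIs of Mono 2 lay in 6 of its 109 cells.

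Vcam1 was concentrated in few cells in VSMC and Mono 1, and also in EC 2 and EC 3. In EC 2, 17 of 229 cells held its 30 UMIs, and in EC 3, 2 cells with 5 or more held 48.5% of its 33 UMIs. In VSMC, 203 of 2159 cells had a UMI, and 16 cells with 5 or more (11 in library 1, 5 in library 2) held 53.0% of its 466 UMIs. Of these 16 cells, 13 had no UMI of an endothelial marker. In Mono 1, 84 of 443 cells had a UMI, and 19 cells with 5 or more (2 in library 1, 17 in library 2) held 57.0%. Without the cells rich in endothelial markers, Mono 1 stood at 103 CPM of Vcam1. In Fibro 1 the gene was more even: 446 of 1147 cells had a UMI, and 29 cells with 5 or more held 27.4%.

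**Figure D4:**
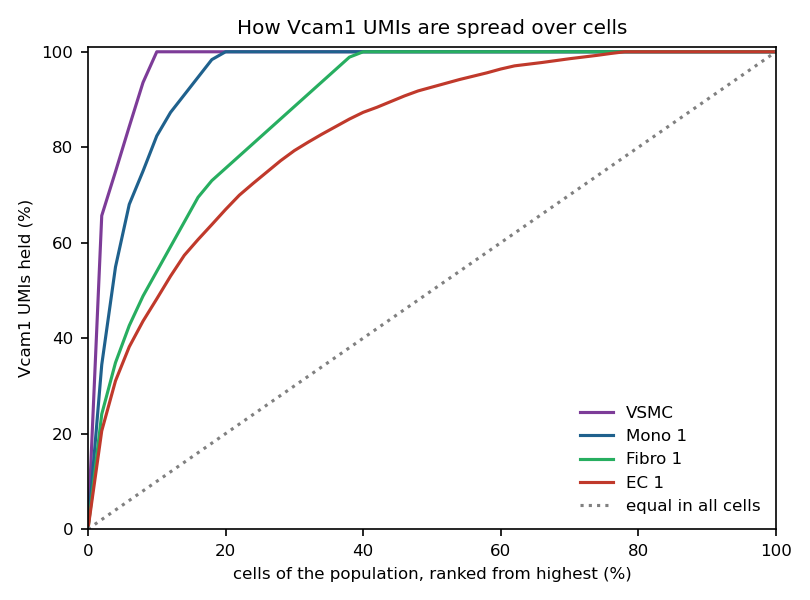
Share of the Vcam1 UMIs of a population (vertical axis, percent) held by its cells ranked from the highest (horizontal axis, percent of cells), over both libraries, for VSMC, Mono 1, Fibro 1 and EC 1; the dotted line is an equal share for each cell. The curve of VSMC reaches 100% within the 9.40% of its cells with a UMI, and that of EC 1 within 77.9%.

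Partner genes were described from lists of genes that act with the members, with the same test and threshold. Over all genes, 20.3% were called in EC 1 against EC 2 (11.1% higher, 9.23% lower), 11.6% in EC 1 against EC 3 (5.97% higher, 5.64% lower) and 11.7% in EC 2 against EC 3 (5.52% higher, 6.17% lower), and the counts of each list stand beside these shares. Of 9 cortical anchors that tie adhesion molecules to actin, 6 were higher in EC 1 than in EC 2 and none was lower (median log2 0.69, against 0.01 over all genes), among them Ezr (1.94 ± 0.49) and Actn1 (1.27 ± 0.24). The log2 ratios of CPM in libraries 1 and 2 were 0.62 and 2.14 for Ezr, which had 8 UMIs in EC 2, and 0.50 and 1.53 for Actn1. In EC 1 against EC 3, 2 of the 9 were higher (5.97% over all genes), among them Actn4 (0.72 ± 0.17), and in EC 2 against EC 3 Actn1 was lower (-1.16 ± 0.26). Of 13 ligands and counter-receptors, Itga9 (2.57 ± 0.29), an integrin subunit that binds Vcam1, and Glg1 (1.15 ± 0.25), an E-selectin ligand, were higher in EC 1 than in EC 2. Both were also lower in EC 2 than in EC 3, at -2.76 ± 0.34 and -1.09 ± 0.31, and no ligand was called in EC 1 against EC 3.

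Of 15 tested genes of other endothelial adhesion and diapedesis, 3 were higher and 5 lower in EC 1 than in EC 2, with 20.3% of all genes called. Bcam (1.41 ± 0.21), a laminin receptor, was higher, and Emcn (-1.91 ± 0.15), a sialomucin of capillaries and veins, and Jam3 (-2.93 ± 0.37), the partner of Jam2, were lower. Jam3 had 107 and 87.3 CPM in EC 2 against 7.76 and 6.16 CPM in EC 3 (3 UMIs; 13.8-fold, counting interval 4.54 to 68.7), so of the endothelial populations EC 2 was highest in both Jam2 and Jam3. Thy1, which leukocyte integrins bind, was lower in EC 1 than in EC 3 (-5.62 ± 0.38) and in EC 2 than in EC 3 (-4.33 ± 0.40). In EC 1 against EC 3 (11.6% of all genes called), 3 were higher and 4 lower, among them Bcam (1.55 ± 0.22) and Emcn (-2.08 ± 0.15). In EC 2 against EC 3 (11.7% called), 3 were higher and 3 lower, among them the tight-junction gene Cldn5 (-1.92 ± 0.26).

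The chemokines and cytokines shown to leukocytes differed in kind between the populations. Cxcl16, a membrane-bound chemokine, was higher in EC 1 than in EC 2 (3.04 ± 0.47) and EC 3 (1.24 ± 0.41). Cxcl9, an interferon-induced chemokine, had 171 UMIs in EC 2 and none in EC 1 or EC 3. It was thus at least 157-fold higher in EC 2 than in EC 1 and at least 33.8-fold higher than in EC 3, against a floor of 3 counts per population. Cxcl12 was lower in EC 1 than in EC 2 (-3.64 ± 0.26) and higher in EC 2 than in EC 3 (3.88 ± 0.33). Ccl21a, a chemokine of lymphatic endothelium, was lower in EC 1 than in EC 3 (-9.42 ± 0.58) and in EC 2 than in EC 3 (-10.54 ± 0.69), and Il33 was lower in EC 1 than in EC 3 (-4.63 ± 0.48). Of 11 tested, 2 were higher and 2 lower in EC 1 against EC 2 (20.3% of all genes called), 1 was higher and 2 lower in EC 1 against EC 3 (11.6%), and 2 were higher and 2 lower in EC 2 against EC 3 (11.7%).

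Of 14 genes of the NF-kB and cytokine response, none was higher and 3 were lower in EC 1 than in EC 2: Nfkbiz (-1.11 ± 0.37), Nfkbia (-0.95 ± 0.23), the inhibitor that NF-kB itself induces, and Irf1 (-0.95 ± 0.20). With 20.3% of all genes called in this comparison, 3 of 14 is near the background and is no result about the list. Nfkbia stood at 554 and 592 CPM in EC 1 against 1202 and 1259 CPM in EC 2. Against EC 3, Irf1 was higher (1.45 ± 0.36) and Nfkbiz lower (-1.66 ± 0.38) in EC 1, and Irf1 was higher in EC 2 (2.40 ± 0.35).

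**Figure D5:**
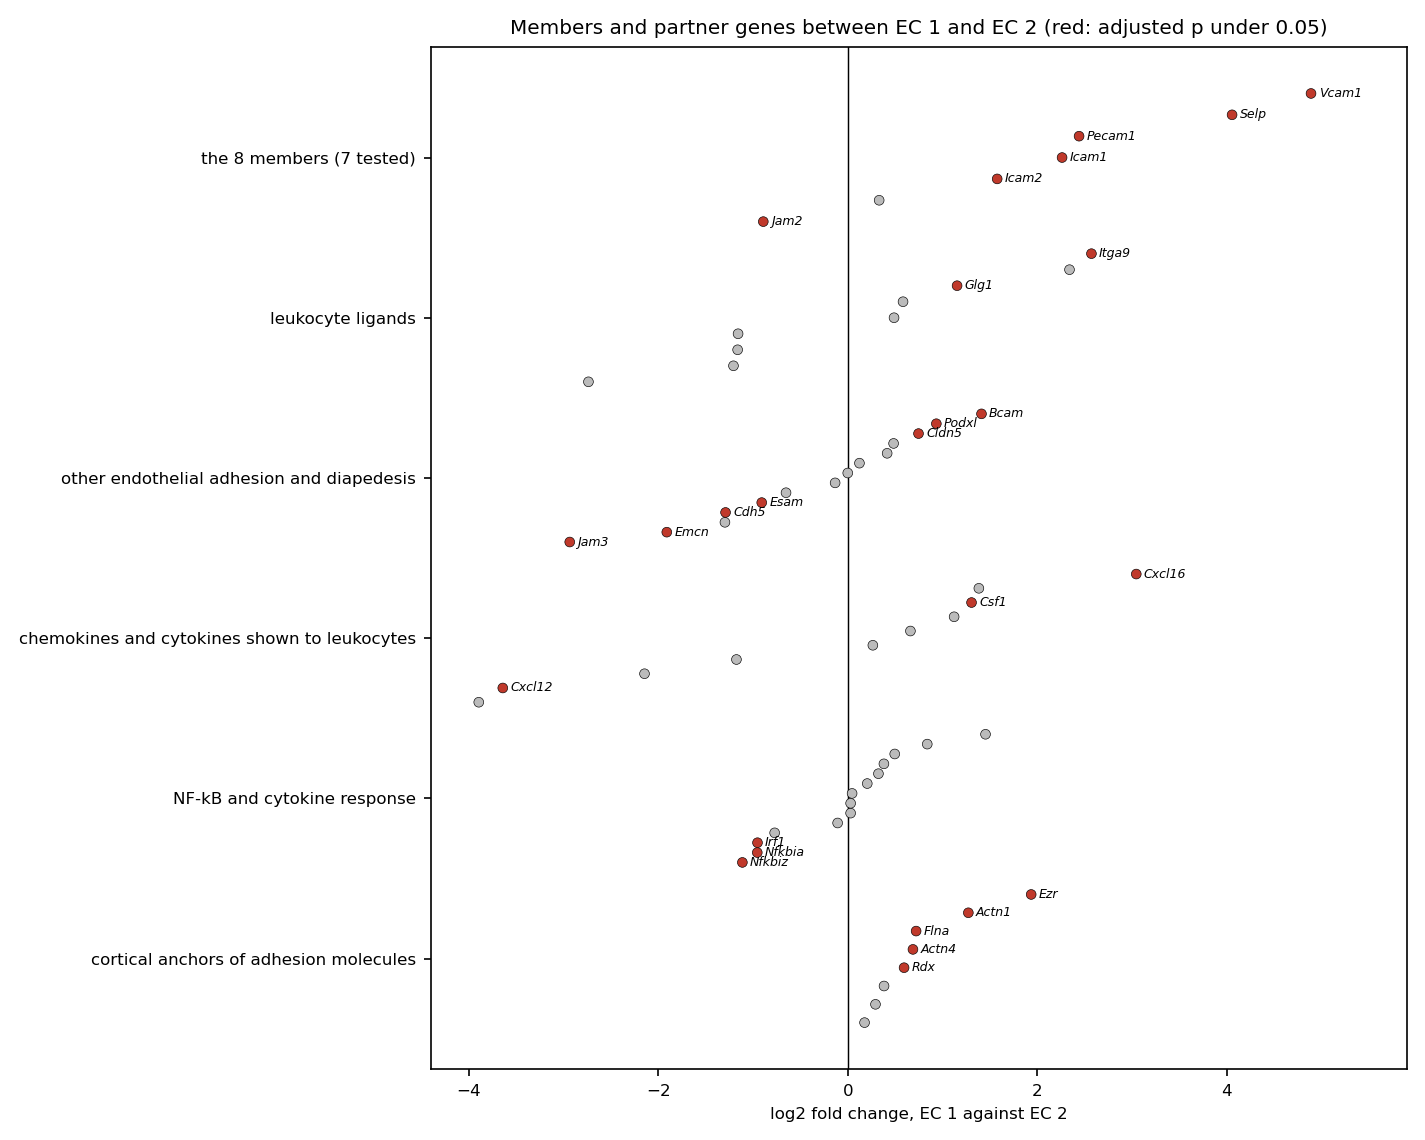
Log2 fold change (horizontal axis) in EC 1 against EC 2 of the 7 tested members and of the tested partner genes, by list; red points passed an adjusted p under 0.05 and carry names. Genes without a UMI in EC 1 or EC 2 (Cxcl9 among them) are left out, as is 1 cortical anchor; the 8 cortical anchors drawn lie right of 0, and the called NF-kB genes lie left of it.

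Genes with the pattern most like each member were sought by the Pearson correlation of log2(CPM + 10) over the 20 sums of 10 populations in 2 libraries, which share libraries and cell classes. Selp was near Gprc5a (0.98) and Degs2 (0.96), and Pecam1 near She, Pkn3 and Adcy4 (0.97 to 0.96). Vcam1 had the looser neighbours Exoc3l4 (0.90), Tmx1 (0.88) and 1500015O10Rik (0.86), and Icam1 had Lmo2 (0.90), Dopey2 (0.87) and Piezo1 (0.82). Icam2 was nearest to Tnfsf10 (0.97), Myct1 and She (both 0.96), F11r to Rasgrf2, C130074G19Rik and Stap2 (all 0.96), and Jam2 to Rapgef3 (0.96), Lmo7 (0.93) and Bvht (0.92). Gprc5a had 107 CPM in EC 1, 2.52 CPM in EC 2 and 11.6 CPM in EC 3 (means of 2 libraries). Among the members themselves the correlation was highest for Icam2 with Pecam1 (0.95). It was lowest for Vcam1 with Jam2 and for Vcam1 with Icam2 (both 0.49), where the Spearman correlations were 0.50 and 0.17.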

How the data were processed

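Per the labels, droplet libraries (10x v2) were made from digested whole aortas, and per the submitters' processing notes reads were processed with Cell Ranger 2.1. The genome build and annotation are not given in the sources used here. The authors deposited 1 table of raw UMI counts for all cells, and their table of cell names gives 1 of 10 populations per cell. Library 1 and 2 are the barcode endings; which aorta is which is not stated.

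UMIs were summed per population and library (20 sums, each of at least 10 cells). Genes kept by filterByExpr (10488) were scaled by TMM and fitted once with edgeR 4.0.16 (quasi-likelihood; terms population and library, since the populations of a library come from 1 aorta; residual degrees of freedom 9), with Benjamini-Hochberg adjustment over the genes tested. The fit was tested on simulated data. CPM intervals and floors (3 counts, 95%) cover counting error only. Doublets (58 and 26 cells, Scrublet) were kept in the main values and left out in an alternative. Other alternatives were RLE factors, DESeq2 1.42.0, no filter, no library term, 1 library at a time, thinning to 1300 UMIs, rebuilt Leiden clusters and at least 25 cells per sum.

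Named are the 8 members, for each tested member the 3 genes most like it, and per endothelial comparison up to 3 called genes of each list with the largest fold among those with 50 or more UMIs and no change of sign between libraries. Of the genes this rule names, 2 are not reported here. Members and lists were chosen with earlier results of these data known. Madcam1 and Nectin2 of the lists, and cells of mice on Western diet, were not analysed here.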

Additional observations from a re-analysis of the deposited data

How the results depend on the processing

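Of 70 tests of a member in a comparison, 47 were called, and 33 of these were called in all 8 alternatives with a test; no call changed its direction when 1 library was used alone. At 1300 UMIs per cell fewer genes were called: 1270 (EC 1 against EC 2), 692 (EC 1 against EC 3), 660 (EC 2 against EC 3), 2519, 2309 and 2135 (endothelial class against VSMC, fibroblasts and immune populations), 2765 (fibroblasts against VSMC), 743 (Fibro 2 against Fibro 1), 635 (Mono 1 against Mono 2) and 1087 (Macro), against 2130, 1218, 1226, 4417, 4270, 4150, 5061, 1626, 1797 and 2056; fewer UMIs entered these fits. Members called in EC 2 against EC 3 were 1 at this depth, with DESeq2 and with no replicate block, against 3, and in Fibro 2 against Fibro 1 they were 1, 1 and 3, against 5. Without the replicate block (the library term) 939 genes were called in Fibro 2 against Fibro 1, and with DESeq2 1078. Rebuilt clusters called 2 members in Mono 1 against Mono 2, against 1.

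Signs of uncalled values turned for Jam2 in EC 1 against EC 3 (-0.025, RLE), at 1300 UMIs for Selp (4.73) and F11r (0.40) in EC 2 against EC 3, Icam2 in Fibro 2 against Fibro 1 (0.73) and Selp (2.65) and F11r (0.85) in Mono 1 against Mono 2, with DESeq2 for Selp in Fibro 2 against Fibro 1 (-0.0033), and for Pecam1 in fibroblasts against VSMC (-0.075 with no filter, -0.051 without doublets, -0.22 at 1300 UMIs, -0.061 in rebuilt clusters). With rebuilt clusters Icam2 (0.067) and F11r (3.70, edgeR adjusted p = 0.0039) turned in Mono 1 against Mono 2, and the called F11r in Macro turned to 0.22; the cause was not tested. Low counts of Sele, Selp outside EC 1 and F11r in Macro limit what these 2 libraries show.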

Other observations

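Chosen after their values were seen, the cells with 5 or more UMIs of a member outside the endothelium were set beside the cells of the same population without a UMI of it; the values are descriptions of cells, without a test. The 16 such Vcam1 cells of VSMC (median 5752.5 UMIs per cell, against 5921.5 in 1956 cells without Vcam1) carried Timp1, a metalloproteinase inhibitor, at 1163 CPM in 10 cells against 15.5 CPM, the growth factor gene Hbegf at 577 against 63.4 CPM, and the matrix gene Mgp, an inhibitor of calcification, at 46195 against 10923 CPM. Cdkn2c and Capg followed. Of the other members, Pecam1 was in 6 of the 16 cells (37.5%, against 23.6% of the cells without Vcam1), at 50.9 against 54.3 CPM. F11r was in 3 (18.8% against 9.66%) and Icam2 in 2 (12.5% against 3.22%). Icam1 (6.25% against 2.35%) and Selp (6.25% against 0.97%) were in 1 cell each, and Sele and Jam2 in none.

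The 31 Pecam1 cells of Fibro 1 (4 in library 1, 27 in library 2) held 43.7% of the Pecam1 UMIs of that population. They carried Cytl1 at 4838 CPM in 27 cells, against 513 CPM in the 889 cells without Pecam1, and Prss12 (372 against 58.7 CPM), Frzb (279 against 44.1 CPM) and Ncam1 (143 against 22.1 CPM). Plvap (326 against 71.2 CPM) and Aqp1 (279 against 52.7 CPM) were higher as well. Of the 6 endothelial markers, Ptprb was higher, in 11 of the 31 cells (109 against 29.6 CPM). Cldn5 (19.4 against 8.12 CPM), Egfl7 (19.4 against 8.33 CPM) and Ecscr (19.4 against 7.70 CPM) were higher on 5 UMIs each. Tie1 was higher on 2 UMIs (7.75 against 2.50 CPM). Cdh5 was at 0 in all 31 cells, against 5.83 CPM. The part of endothelial RNA in these cells was not tested. Icam2 was found in 12 of the 31 cells, at 69.8 against 4.58 CPM. The deeper median of the 31 cells (8050 against 5129 UMIs) moved with these shares, and its part was not tested.

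The 19 Vcam1 cells of Mono 1 carried Cytl1 (1015 against 107 CPM in 359 cells without Vcam1) and Cd9 (720 against 107 CPM). Endothelial genes moved with them: Pecam1 was in 6 of the 19 cells (276 against 26.9 CPM), Icam2 stood at 158 against 7.68 CPM, and of the 6 endothelial markers Ptprb (217 against 17.3 CPM), Cldn5 (177 against 20.5 CPM), Egfl7 (128 against 30.7 CPM) and Ecscr (59.1 against 10.9 CPM) were higher, Cdh5 was close (9.86 against 8.96 CPM) and Tie1 was at 0. The part of endothelial RNA in these cells was not tested. The 6 Mono 2 cells with F11r carried C1qa at 4047 CPM, against 313 CPM in the other 103 cells, and C1qb at 4174 against 479 CPM. Another macrophage marker, Mrc1, went the other way, in 1 of the 6 cells at 18.1 CPM against 54.4% of the other cells at 222 CPM. Ccr2 was in 4 of the 6 cells (126 against 513 CPM), and Cd209a in none of them, against 34.0% of the other cells.

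Inside EC 1, the 142 cells with 5 or more Vcam1 UMIs had Icam1 at 230 CPM against 81.0 CPM in the 94 cells without Vcam1, Selp at 170 against 96.6 CPM and Cxcl16 at 78.4 against 31.1 CPM. Pecam1 (3421 against 3492 CPM) and Cdh5 (384 against 414 CPM) were close in the same cells, and Jam2 was at 149 against 196 CPM. The median depth was 6191 against 2813.5 UMIs per cell. Over all EC 1 cells, the Spearman correlation of Vcam1 with Selp was 0.08 and 0.04 in the libraries, against 0.25 and 0.24 with Icam1.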
